A study of Mus musculus with 8 samples.

Results

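The genes described here are the subunits of the receptors for glutamate and GABA, with both chloride cotransporters of the SLC12 family that set the direction of the GABA response in neurons. They were selected by symbol: the AMPA receptor genes Gria1 to Gria4, the NMDA receptor genes of the Grin family, the kainate receptor genes Grik1 to Grik5, the 8 metabotropic receptor genes of the Grm family, the GABA-A receptor genes of the Gabr family, the GABA-B receptor genes Gabbr1 and Gabbr2, and Slc12a2 and Slc12a5. The rule gave 47 of the 31053 genes in the gene table. RNA was measured in single cells sorted for GFP from the dentate gyrus of 8-week-old Nestin-GFP mice, in which the Nestin promoter drives GFP. The mice had either a sham craniotomy (Control) or a unilateral controlled cortical impact that causes a traumatic brain injury (TBI), and tissue was taken 15 days after surgery. All animals of both groups carried the reporter, and pooled cells of each group gave 1 library for Control and 1 for TBI. The labels list 4 animals in each group, but no cell could be assigned to an animal. The study's methods give other animal numbers.

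Because each condition was 1 library, no test of TBI against Control was possible, and the intervals below are 95% intervals for counting error in these libraries only. Levels are CPM, counts per 1000000: the unique molecular identifiers (UMIs) of a gene, added up for the cells of a population in 1 library and scaled to their total without Malat1. Values are given for Control first and TBI second. One gene is compared across populations. Levels of different genes are not compared, except that the ratio of Slc12a2 to Slc12a5 UMIs is followed across populations. A population is called above another only where its level was higher in both libraries with intervals that did not overlap. A gene entered such a comparison if both populations and libraries together held 100 UMIs of it or more. A ratio of TBI to Control was read only from 100 UMIs or more in the population, of which neither library held fewer than 10.

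The analysed cells numbered 3048 in Control and 5033 in TBI, with 24629018 and 31501853 UMIs and medians of 6933 and 5676 UMIs per cell, and the libraries shared 3 barcodes. Clusters were named by marker genes, so each name below means cells that resemble that type by its markers. The clusters were rebuilt here without the 47 genes and are not the authors' own. The Nestin-GFP gate held many cells besides progenitors: the share of oligodendrocytes was 18.6% in Control and 21.9% in TBI, and endothelial and mural cells were present as well. Late neuroblasts 1, 2 and 3 and astrocytes 1, 2 and 3 are numbered by their median UMI count, which is no order of maturation. Late neuroblasts 3 and astrocytes 3 were nearly without the nuclear RNA Malat1 (0.0531% and 0.581% of UMIs, and 0.144% and 0.285%), against 14.1% and 15.6% in astrocytes 1. A low-RNA neuronal cluster of 49 and 115 cells was given no cell type name; hemoglobin RNA made up 16.3% of its Control UMIs and 0% of its TBI UMIs.

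Glutamate opens AMPA, kainate and NMDA receptors, cation channels assembled from several subunits, and acts through metabotropic receptors coupled to G proteins. GABA opens GABA-A receptors, chloride channels built from alpha, beta and a further subunit such as gamma, and acts through the G protein-coupled GABA-B receptor, a dimer of the products of Gabbr1 and Gabbr2. Newborn granule cells of the dentate gyrus are known to receive GABA input before glutamate input and to be depolarised by GABA while they are young. Astrocytes and oligodendrocyte precursors carry receptors for both transmitters too.

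Of the 47 genes, 27 reached 20 CPM in both libraries in at least 1 named neural population: all 4 AMPA receptor genes, all 5 kainate receptor genes, both GABA-B receptor genes, 4 of 7 NMDA receptor genes, 8 of 19 GABA-A receptor genes, 3 of 8 metabotropic receptor genes and 1 of 2 cotransporters. The other 20 reached at most 16.4 CPM in the library where they were lower. They include Gabra3, Gabra5, Gabra6, Gabrb2, Gabrd, Gabre, Gabrp, Gabrq, Gabrr1, Gabrr2, Gabrr3, Grin2a, Grin2d, Grin3b, Grm2, Grm4, Grm6, Grm8 and Slc12a5. Of these, 9 had fewer than 10 UMIs over all cells, and Gabra6, Gabrp and Gabrr3 had 0. Gabrd, Gabra5 and Grin2a, whose products are found in mature granule neurons, were thus among those that did not reach 20 CPM in both libraries. In late neuroblasts 2, Gabra5 had 3.48 and 9.61 CPM, Grin2a 5.23 and 13.5 CPM (6 and 21 UMIs) and Gabrd 0 UMIs in both libraries. In the low-RNA neuronal cluster, Grin2a had 20 UMIs in Control (197 CPM) and 0 in TBI.

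**Figure D1:**
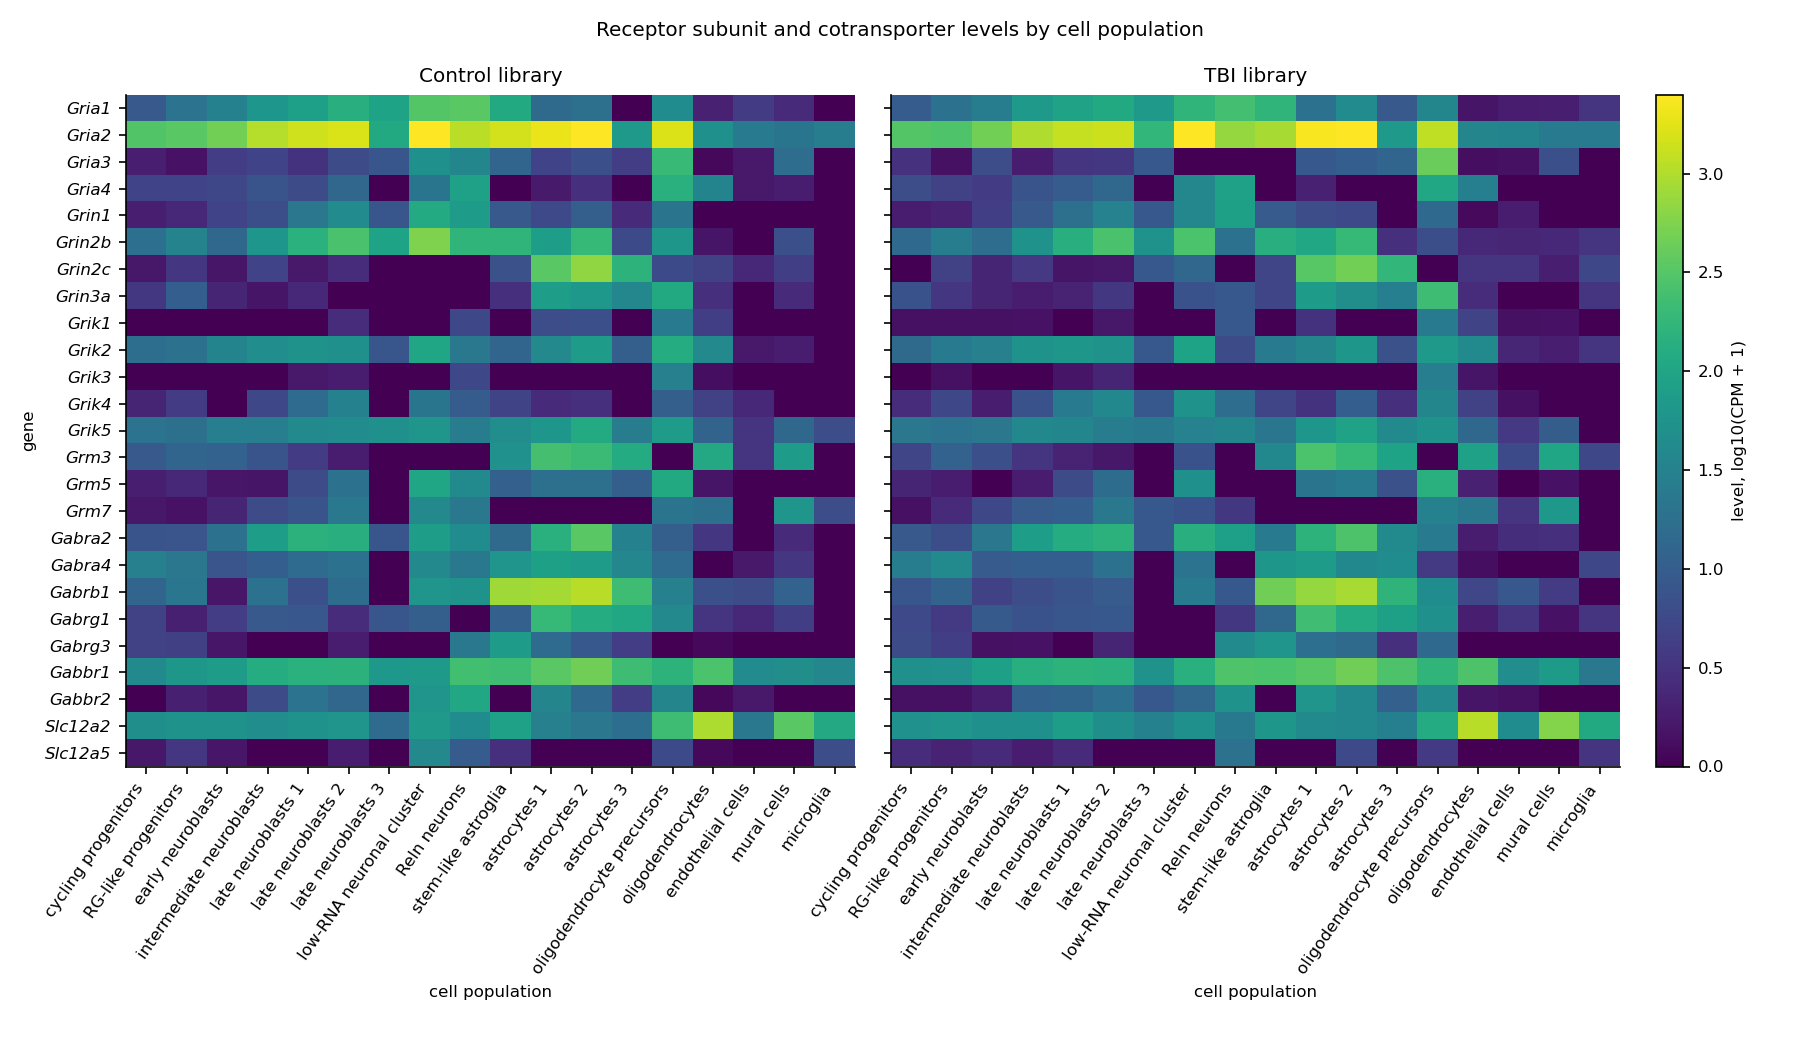
Levels of 24 genes that reached 20 CPM in both libraries and of Slc12a5 (rows) in 18 cell populations (columns), in the Control library on the left and the TBI library on the right, as colours on a scale of log10(CPM + 1); the brightest shade also stands for values above the end of the scale. Gria2 was bright in nearly all neural populations, Gabrb1 in the stem-like astroglia and astrocytes, Gria3 in oligodendrocyte precursors and Slc12a2 in oligodendrocytes.

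Along the neuronal lineage, from cycling progenitors through radial glia-like (RG-like) progenitors to late neuroblasts, the AMPA receptor gene Gria2 was found at every stage. Its product makes AMPA receptors nearly impermeable to calcium. Gria2 had 299.8 and 305 CPM in cycling progenitors, 333 and 286 CPM in RG-like progenitors, 474 and 468 CPM in early neuroblasts, 1037 and 986 CPM in intermediate neuroblasts, 1439 and 1278 CPM in late neuroblasts 1 and 1609 and 1398 CPM in late neuroblasts 2. It was thus already present in dividing cells, and each neuroblast group was above the one listed before it. The level in late neuroblasts 2 was 4.83-fold (4.42 to 5.28) that in RG-like progenitors in Control and 4.88-fold (4.48 to 5.32) in TBI. In late neuroblasts 3, nearly without Malat1 and with a median of only 3751 and 3180 UMIs, Gria2 had 115 and 176 CPM. Gria2 UMIs were also found in cells that are not known for it, at 24.9 and 33.5 CPM in endothelial cells. With each cell thinned to 2000 UMIs, 1.99% of Control and 1.84% of TBI endothelial cells held a Gria2 UMI, against 45.1% and 42.5% of RG-like progenitors and 96.0% and 91.1% of late neuroblasts 2. Cells with fewer than 2000 UMIs without Malat1, 395 in Control and 848 in TBI, were left out of these and all later shares at this depth. The unthinned median depths were 4891 and 3764 UMIs in those endothelial cells and 9493 and 7246 UMIs in those late neuroblasts.

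In all, 14 of the 47 genes had enough UMIs to compare late neuroblasts 2 with RG-like progenitors. Of these, 10 were higher in late neuroblasts 2 and 0 were lower, where 16.9% of 8450 genes in the same limits were higher and 18.5% were lower. A gene near 0 in progenitors entered this comparison only through its level in neuroblasts, so the count over the 14 is no measure of the whole family. Gabra4, Gabrb1, Grik5 and Slc12a2 were in neither group.

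Among the genes for NMDA receptors, Grin2b, the juvenile subunit that binds glutamate, had 32.1 and 25.7 CPM in RG-like progenitors and 12.6 and 15.5 CPM in early neuroblasts. It had 60.0 and 53.2 CPM in intermediate neuroblasts, 147 and 135 CPM in late neuroblasts 1 and 265 and 268 CPM in late neuroblasts 2. The intervals of the early neuroblasts and the cycling progenitors (16.6 and 13.3 CPM) overlapped in both libraries. Between RG-like progenitors and late neuroblasts 2 the level differed 8.25-fold (Control) and 10.4-fold (TBI). Thinned to 2000 UMIs, 42.1% and 44.4% of late neuroblasts 2 held a Grin2b UMI, against 4.86% and 4.52% of RG-like progenitors and 0% of endothelial cells in both libraries (0 of 251 and 0 of 543 cells). Grin1, whose product is obligatory in every NMDA receptor, had 3 UMIs in each library in RG-like progenitors (1.46 and 1.20 CPM). In late neuroblasts 2 it had 49 UMIs in each library, or 42.7 CPM (31.6 to 56.4) and 31.4 CPM (23.2 to 41.5).

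Gria1, the AMPA receptor subunit linked to activity-dependent insertion at synapses, had 7.98 and 8.73 CPM in cycling progenitors, 60.5 and 68.4 CPM in intermediate neuroblasts and 132 and 117 CPM in late neuroblasts 2. The level in late neuroblasts 2 was 7.16-fold and 6.60-fold that in RG-like progenitors. Up to late neuroblasts 2, Gria3 and Gria4 stayed low throughout the lineage, at most at 5.23 and 5.31 CPM for Gria3 and at 12.2 and 12.8 CPM for Gria4. Among kainate receptor genes, Grik2, which can form channels by itself, had 18.0 and 23.3 CPM in RG-like progenitors and 49.7 and 53.2 CPM in late neuroblasts 2. Grik4, a high-affinity subunit that needs a partner, had 2.92 and 4.42 CPM and then 30.5 and 37.8 CPM, a difference of 10.4-fold and 8.56-fold. Grik5, the other partner subunit, had 17.0 and 18.9 CPM and then 42.7 and 26.9 CPM, and its TBI intervals overlapped (13.9 to 25.1 and 19.4 to 36.4 CPM).

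Gabra2, which encodes an alpha subunit of GABA-A receptors, was higher in late neuroblasts 2 than in RG-like progenitors. It had 6.81 and 5.62 CPM in RG-like progenitors, 18.3 and 21.2 CPM in early neuroblasts and 78.3 and 75.9 CPM in intermediate neuroblasts. It had 153 and 126 CPM in late neuroblasts 1 and 138 and 152 CPM in late neuroblasts 2, which did not differ beyond their intervals in either library. From RG-like progenitors to late neuroblasts 2 it differed 20.3-fold (11.8 to 38.0) and 27-fold (15.8 to 50.1). Gabbr1, the ligand-binding partner in the GABA-B receptor, had 62.3 and 51.4 CPM in RG-like progenitors and 151 and 149 CPM in late neuroblasts 2. Its partner Gabbr2 had 2 and 1 UMIs in RG-like progenitors and 12.2 and 16.7 CPM in late neuroblasts 2.

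Gabra4 and Grm3 had another course. Gabra4, an alpha subunit of extrasynaptic receptors in mature granule cells, had 29.7 and 25.8 CPM in cycling progenitors, 21.4 and 41.4 CPM in RG-like progenitors, 6.94 and 8.58 CPM in early neuroblasts and 17.4 and 17.3 CPM in late neuroblasts 2. The cycling and the RG-like progenitors had intervals above that of the early neuroblasts in both libraries. The intervals of RG-like progenitors and late neuroblasts 2 overlapped in Control, while in TBI the RG-like progenitors were higher. Grm3, a receptor that lowers cyclic AMP, had 11.7 and 10.8 CPM in RG-like progenitors and 0.871 and 0.641 CPM in late neuroblasts 2, which is 1 UMI in each library. With so few UMIs it was outside the limits of the count above. Grm5 and Grm7 had their highest lineage levels in late neuroblasts 2, at 17.4 and 14.7 CPM and at 21.8 and 21.8 CPM.

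**Figure D2:**
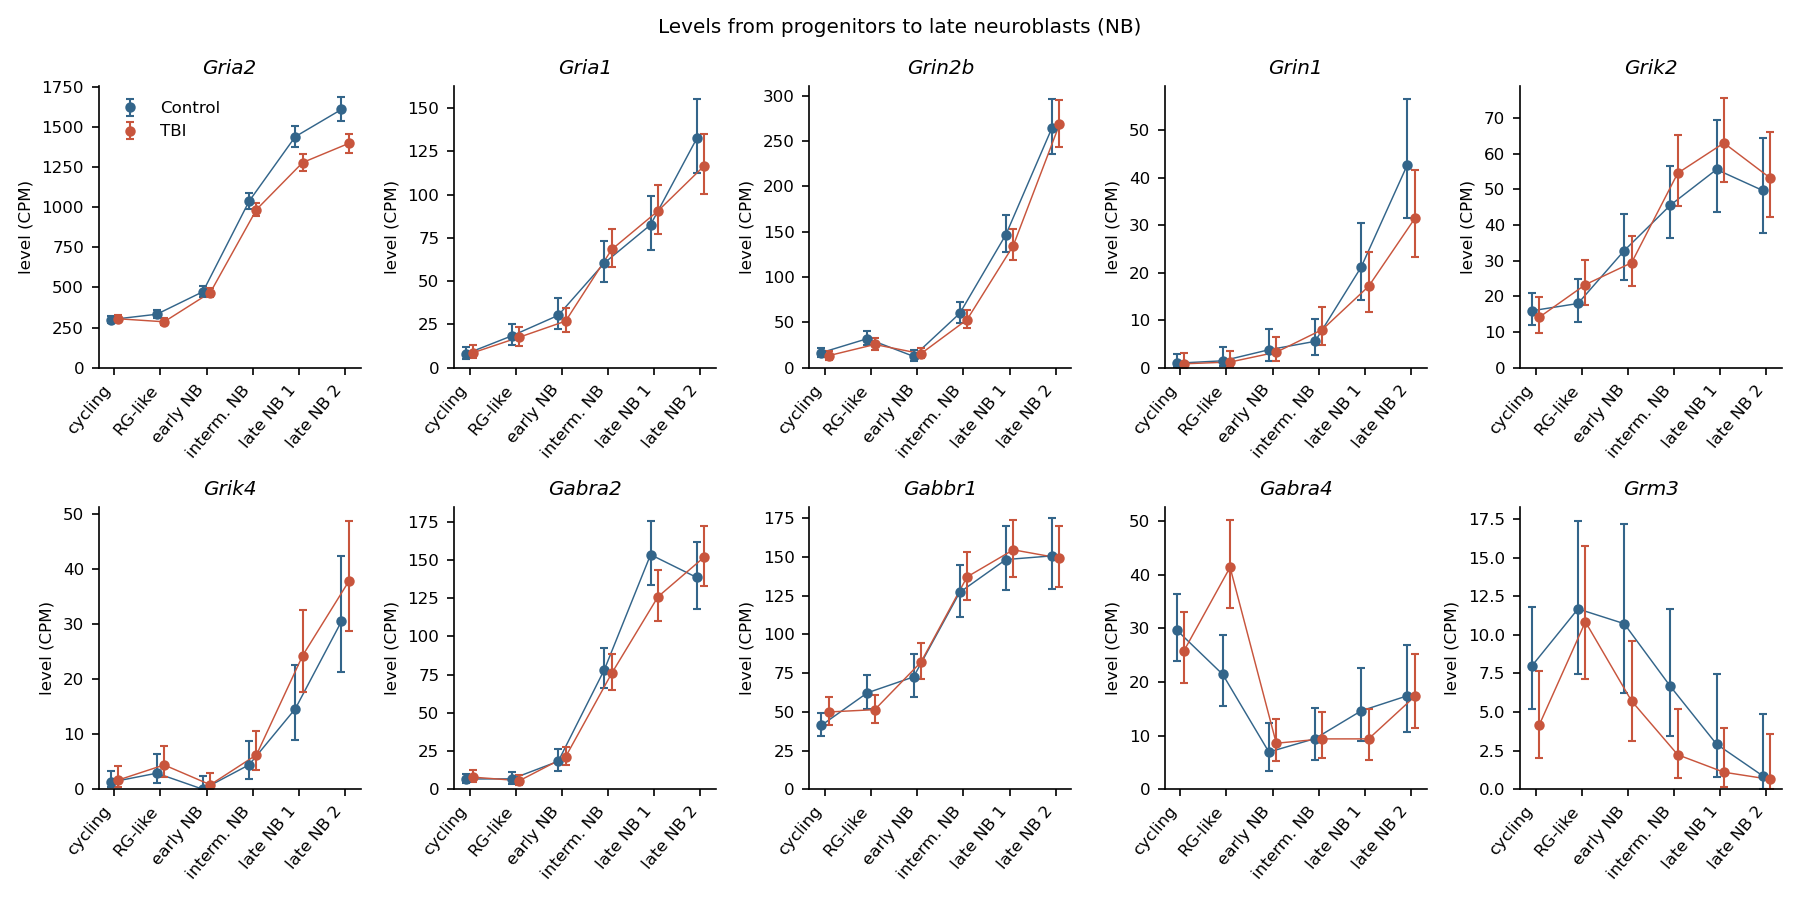
Levels in CPM (vertical axes, each from 0) of 10 genes in cycling and RG-like progenitors and 4 neuroblast groups (NB, horizontal axis); blue points are the Control library and red points the TBI library, and bars are 95% Poisson intervals of the counts. All panels except those of Gabra4 and Grm3 are highest in a late neuroblast group in both libraries, from Gria2 (1609 and 1398 CPM in late neuroblasts 2) to Grik4 (30.5 and 37.8 CPM), while Gabra4 and Grm3 are highest in progenitors.

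Genes that act with these receptors were taken from lists of auxiliary subunits, scaffolds and release genes. Of 11 genes for auxiliary subunits of AMPA receptors, 5 had enough UMIs, of which Cacng2, Cnih2 and Cnih3 were higher and Cacng5 was lower in late neuroblasts 2 than in RG-like progenitors. Cnih2, a cornichon that slows the closing of AMPA receptors, had 51.1 and 49.4 CPM in RG-like progenitors and 211 and 237 CPM in late neuroblasts 2. Cnih3 had 7.30 and 6.02 CPM and then 89.7 and 103 CPM, and Cacng5 had 21.9 and 30.1 CPM and then 0.871 and 4.48 CPM. Of 11 scaffold genes of glutamate synapses, 7 had enough UMIs, of which Dlg4 (which encodes PSD-95), Shank1 and Shank2 were higher and Homer2 was lower. Shank1 had 6.81 and 6.83 CPM and then 85.4 and 55.1 CPM. Of 8 scaffold and auxiliary genes of GABA receptors, 4 had enough UMIs, and Lhfpl4, which holds GABA-A receptors at synapses, was higher (20.9 and 26.1 against 49.7 and 49.3 CPM). The vesicular glutamate transporter Slc17a6 was the only one of 6 release genes in the limits, at 19.0 and 10.4 CPM and then 47.0 and 41.0 CPM.

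Slc12a2 (also known as Nkcc1) carries chloride into cells and Slc12a5 (Kcc2) carries it out of mature neurons. In the early, intermediate and late 1 and 2 neuroblasts together there were 308 Slc12a2 and 2 Slc12a5 UMIs in Control, a ratio of 154 (42.3 to 1277), and 451 and 9 UMIs in TBI, a ratio of 50.1 (26.2 to 110.3). These intervals overlapped. Slc12a2 differed little along the lineage, where it had 55.5 and 58.6 CPM in RG-like progenitors and 57.5 and 48.0 CPM in late neuroblasts 2, with a highest value of 78.4 CPM (66.0 to 92.4) in TBI late neuroblasts 1, above TBI late neuroblasts 2 (37.8 to 60.2). In Control these groups did not differ beyond their intervals. Slc12a5 had 1 and 0 UMIs in late neuroblasts 2. In Reln neurons the ratio was 5.0 (1.07 to 46.9) in Control and 1.29 (0.426 to 4.06) in TBI, from 10 and 9 Slc12a2 UMIs and 2 and 7 Slc12a5 UMIs. Outside the neuronal lineage, Slc12a2 had 948 and 1087 CPM in oligodendrocytes, its highest level, against 217 and 123 CPM in oligodendrocyte precursors, a difference of 4.37-fold (3.26 to 6.0) and 8.82-fold (6.59 to 12.1).

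**Figure D3:**
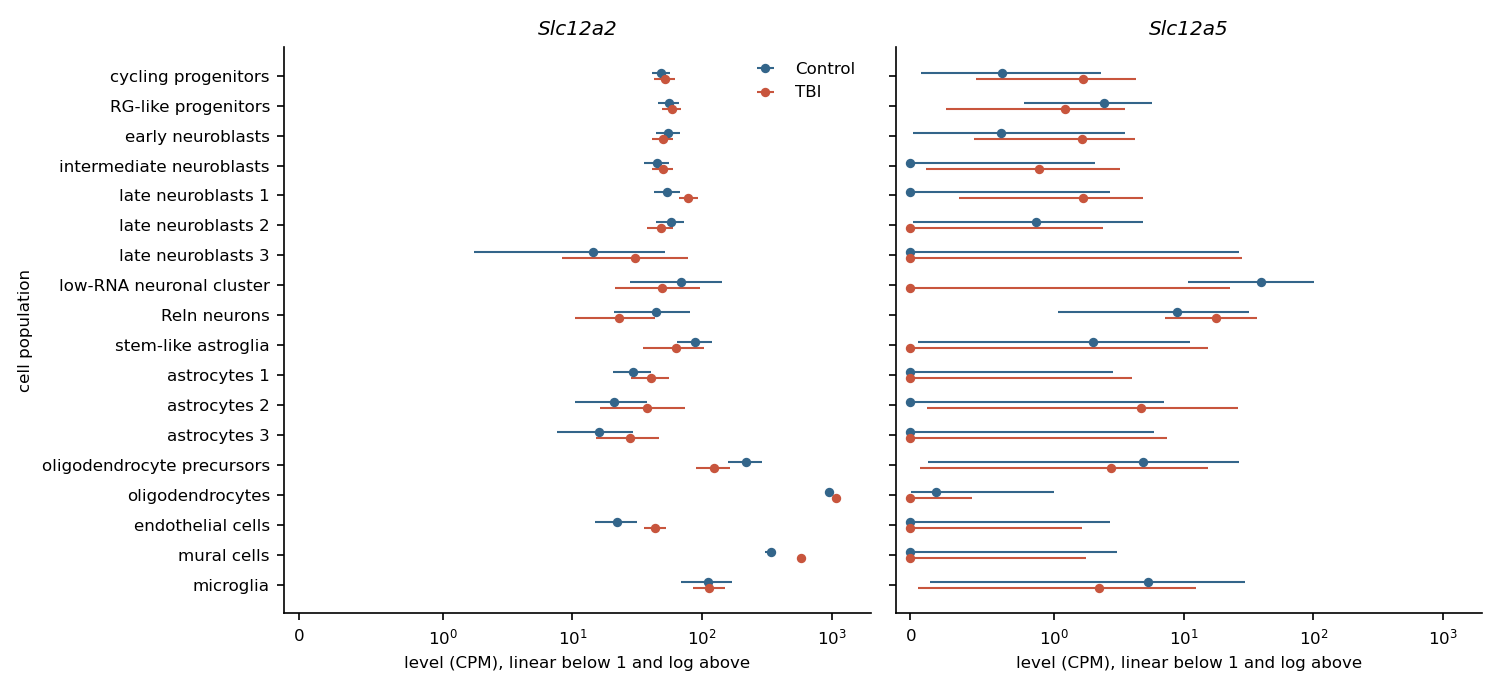
Levels in CPM (horizontal axes, linear below 1 and logarithmic above) of Slc12a2, which loads cells with chloride, and Slc12a5, which extrudes it, in 18 cell populations; blue is the Control library, red the TBI library, and bars are 95% Poisson intervals. Slc12a2 reached 948 and 1087 CPM in oligodendrocytes, and Slc12a5 reached 8.79 and 17.8 CPM in Reln neurons, its highest level in a named population. That level came from 2 and 7 UMIs, and its intervals overlapped those of microglia in both libraries. Slc12a5 was under 3 CPM in the progenitors and in early, intermediate and late 1 and 2 neuroblasts.

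Astrocytes carried another set of GABA-A receptor genes. Gabrb1, a beta subunit, had 867 and 735 CPM in astrocytes 1 against 14.8 and 8.33 CPM in late neuroblasts 2, a difference of 58.5-fold (36.4 to 101) and 88.3-fold (51.3 to 167). Gabrg1, a gamma subunit common in glia, had 189.9 and 225 CPM against 1.74 and 7.69 CPM. Gabra2 was shared by both, at 143 and 158 CPM in astrocytes 1 and 138 and 152 CPM in late neuroblasts 2. Gabra4 was higher in astrocytes 1 (85.4 and 71.4 CPM) than in late neuroblasts 2. In all, 18 of the 47 genes could be compared, of which 9 were higher in astrocytes 1 and 5 were lower, where 23.6% of 7543 genes were higher and 28.2% were lower. Genes such as Grin2c and Grm3 entered only through their level in astrocytes, so these counts do not describe the whole family. The other genes that were higher were Gabbr1, Gabbr2, Gria2, Grin2c, Grin3a and Grm3, and those that were lower included Gria1, Grin1 and Grin2b.

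Gabrg1, Gabra2, Gabra4 and Gabrb1 lie next to each other on chromosome 5, and the 5′ ends of Gabra4 and Gabrb1 overlap on opposite strands, with RefSeq starts 387 bp apart. The promoter sequences of these 4 genes are shown because they are neighbours whose levels differ between cell types, and that of Grin2c because its RNA was nearly limited to astrocytes among these populations. Each is 300 bases from RefSeq on GRCm38.p6, from 250 bases before to 50 bases after the gene's start, written on the gene's strand. Capitals mark matches on either strand to a bHLH E-box (CAGNTG), an NFI half-site (TTGGC) or a SOX motif (ACAANG), letters that proneural, NFI and SOX factors are known to bind. The regions are chr5:70842568-70842867 (minus strand) for Gabrg1, chr5:71095800-71096099 (minus) for Gabra2, chr5:71658259-71658558 (minus) for Gabra4, chr5:71657671-71657970 (plus, the first of 2 starts listed) for Gabrb1 and chr11:115267194-115267493 (minus) for Grin2c.
Gabrg1: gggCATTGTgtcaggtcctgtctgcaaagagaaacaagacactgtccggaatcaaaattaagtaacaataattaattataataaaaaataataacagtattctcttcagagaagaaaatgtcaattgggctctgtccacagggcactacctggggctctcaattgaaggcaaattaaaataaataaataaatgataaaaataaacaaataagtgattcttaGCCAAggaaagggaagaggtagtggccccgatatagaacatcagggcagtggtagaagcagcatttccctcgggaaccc
Gabra2: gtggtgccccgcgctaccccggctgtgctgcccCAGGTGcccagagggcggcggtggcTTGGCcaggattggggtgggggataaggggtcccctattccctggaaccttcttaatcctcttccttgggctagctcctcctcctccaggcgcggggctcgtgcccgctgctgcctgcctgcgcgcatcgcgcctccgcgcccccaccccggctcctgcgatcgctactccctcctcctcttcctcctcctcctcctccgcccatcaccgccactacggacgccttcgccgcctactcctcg
Gabra4: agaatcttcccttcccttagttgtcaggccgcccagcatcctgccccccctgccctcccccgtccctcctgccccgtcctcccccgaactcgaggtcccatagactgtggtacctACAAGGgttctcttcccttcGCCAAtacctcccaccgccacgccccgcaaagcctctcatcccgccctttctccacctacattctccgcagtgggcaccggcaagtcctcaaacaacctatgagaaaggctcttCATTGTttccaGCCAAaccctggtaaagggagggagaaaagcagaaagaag
Gabrb1: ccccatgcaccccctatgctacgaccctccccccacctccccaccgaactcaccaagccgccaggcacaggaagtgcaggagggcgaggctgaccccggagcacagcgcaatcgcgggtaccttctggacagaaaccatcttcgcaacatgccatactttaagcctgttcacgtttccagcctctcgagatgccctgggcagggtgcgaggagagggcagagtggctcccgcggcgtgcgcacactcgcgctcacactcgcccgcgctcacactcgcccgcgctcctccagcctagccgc
Grin2c: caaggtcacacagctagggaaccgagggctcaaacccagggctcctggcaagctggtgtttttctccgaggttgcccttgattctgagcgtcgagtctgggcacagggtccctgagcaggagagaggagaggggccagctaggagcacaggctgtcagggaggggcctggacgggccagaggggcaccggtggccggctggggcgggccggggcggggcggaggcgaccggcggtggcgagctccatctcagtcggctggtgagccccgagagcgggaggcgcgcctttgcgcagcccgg

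The Gabrg1 window was rich in A and T, with 38.3% G and C against a median of 52.7% over all promoters in the table and 60.7% over those of the genes described here, and held 1 NFI and 1 SOX match. The Gabra2 window (70.0% G and C) held 1 E-box and 1 NFI match, the Gabra4 window (58.7%) held 2 NFI and 2 SOX matches, and the Gabrb1 window (66.0%) and Grin2c window (70.0%) held none. Over 32851 promoters of the same length, 51.4% held an E-box, 46.7% an NFI half-site and 41.2% a SOX motif. The table had 41 promoters of 33 of the 47 genes, of which 39.0%, 46.3% and 29.3% held these letters. The matches describe the windows and show no binding. The gene models of Gabra4 and Gabrb1 overlap by 196 bases at their 5′ ends on opposite strands, while the reads come from the 3′ ends of RNA.

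Among the glutamate receptor genes of astrocytes, Grin2c, an NMDA receptor subunit, had 338 and 332 CPM in astrocytes 1, 690.2 and 475 CPM in astrocytes 2 and 156 and 175 CPM in astrocytes 3. It had 2 and 1 UMIs in late neuroblasts 2. Thinned to 2000 UMIs, 45.9% and 43.0% of astrocytes 1 held a Grin2c UMI, against 0.398% and 0.552% of endothelial cells. Grin1, the partner that NMDA channels need, had 4.61 and 5.41 CPM in astrocytes 1. Grin3a, another NMDA receptor subunit, had 80.7 and 72.5 CPM there, Grm3 248 and 272 CPM and Gria2 2013 and 2343 CPM. Both GABA-B receptor genes were present in astrocytes 1, with Gabbr2 at 33.8 and 58.4 CPM, whereas Gabbr2 had 0 UMIs in the stem-like astroglia of both libraries, which allows up to 6.02 and 12.5 CPM. Astrocytes 2 had the highest Gria2 level of all, 4511 and 5369.9 CPM, above astrocytes 1 in both libraries. Their median depth was 2736 and 1932 UMIs and Malat1 made up 19.7% and 21.1% of their UMIs. In astrocytes 3, nearly without Malat1, Gria2 had only 68.4 and 65.8 CPM, while Grin2c, Gabrg1 (103 and 83.7 CPM) and Gabbr1 (218 and 277 CPM) were above their levels in late neuroblasts 2 in both libraries. The part of the low nuclear RNA in the Gria2 level was not tested. Among the listed partner genes, Gphn (gephyrin, the scaffold of inhibitory synapses), Dlg1, Glrb and Slc12a4 were higher in astrocytes 1 than in late neuroblasts 2, and Cacng2, Cnih2, Cnih3, Homer1, Shank1, Lhfpl4 and Slc17a6 were lower. Cnih2 had 0 and 2 UMIs in astrocytes 1, and Gphn had 108 and 102 CPM against 45.3 and 37.2 CPM.

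Stem-like astroglia, the cells with Vim, Hopx and Thrsp (92 and 52 cells), shared Gabrb1 with astrocytes but held little Gabrg1 and Grin2c. Gabrb1 had 824 and 463 CPM, against 20.4 and 11.2 CPM in RG-like progenitors, 40.3-fold (29.3 to 56.8) and 41.2-fold (27 to 64.8) more. Thinned to 2000 UMIs, 68.8% (55 of 80) and 55.8% (24 of 43) of the cells held a Gabrb1 UMI, against 3.47% and 1.36% of RG-like progenitors and 82.1% and 74.2% of astrocytes 1. Gabrg1 was low, with 5 and 3 UMIs (10.0 and 12.5 CPM), 18.9-fold (8.01 to 58.9) and 18.0-fold (6.07 to 87.9) below astrocytes 1. Gabrg3, another gamma subunit, was at 74.2 CPM (52.2 to 102) and 58.4 CPM (31.9 to 98.0), where astrocytes 1 had 14.6 CPM (8.80 to 22.8) and 16.2 CPM (9.09 to 26.8). Gabrg3 had too few UMIs for the count below. Grin2c had 3 and 1 UMIs in the stem-like astroglia against 440 and 307 in astrocytes 1, a difference of 56.2-fold (19.1 to 274) and 79.6-fold (14.2 to 3156).

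Gria1 was the 1 of 13 comparable genes that was higher in stem-like astroglia than in astrocytes 1, at 114 and 167 CPM against 13.8 and 18.4 CPM, or 8.26-fold (4.79 to 14.9) and 9.07-fold (5.03 to 17.1). Gabra2, Gabrg1, Gria2, Grin2c, Grin3a and Grm3 were lower, 6 of the 13. Over 5299 genes, 7.91% were higher and 10.6% lower. Gria1 entered mainly through the stem-like astroglia, with 57 and 40 UMIs there and 18 and 17 in astrocytes 1. Gabra2, Gabrg1, Grin2c, Grin3a and Grm3 entered only through astrocytes 1, so these counts do not describe the whole family. With a limit of 10% on mitochondrial UMIs in place of the filter on UMIs, 0 genes were higher in the stem-like astroglia, so the call for Gria1 ended there. The median mitochondrial share was 11.5% and 12.2% in the stem-like astroglia, above that limit, and 6.62% and 6.04% in astrocytes 1. Most of the stem-like cells behind the levels given here were therefore over the limit. Gabra2 was 10.2-fold and 6.31-fold lower, Grm3 4.76-fold and 7.23-fold lower and Gria2 1.38-fold and 2.58-fold lower. Against RG-like progenitors, 10 genes could be compared and 5 were lower in RG-like progenitors, Gabbr1, Gabrb1, Gria1, Gria2 and Grin2b, with 0 higher; over 7544 genes 10.7% were lower and 13.1% higher. Gabrb1 entered this comparison only through the stem-like astroglia. Grin2b had 166 and 134 CPM in stem-like astroglia, 5.18-fold and 5.20-fold its level in RG-like progenitors.

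**Figure D4:**
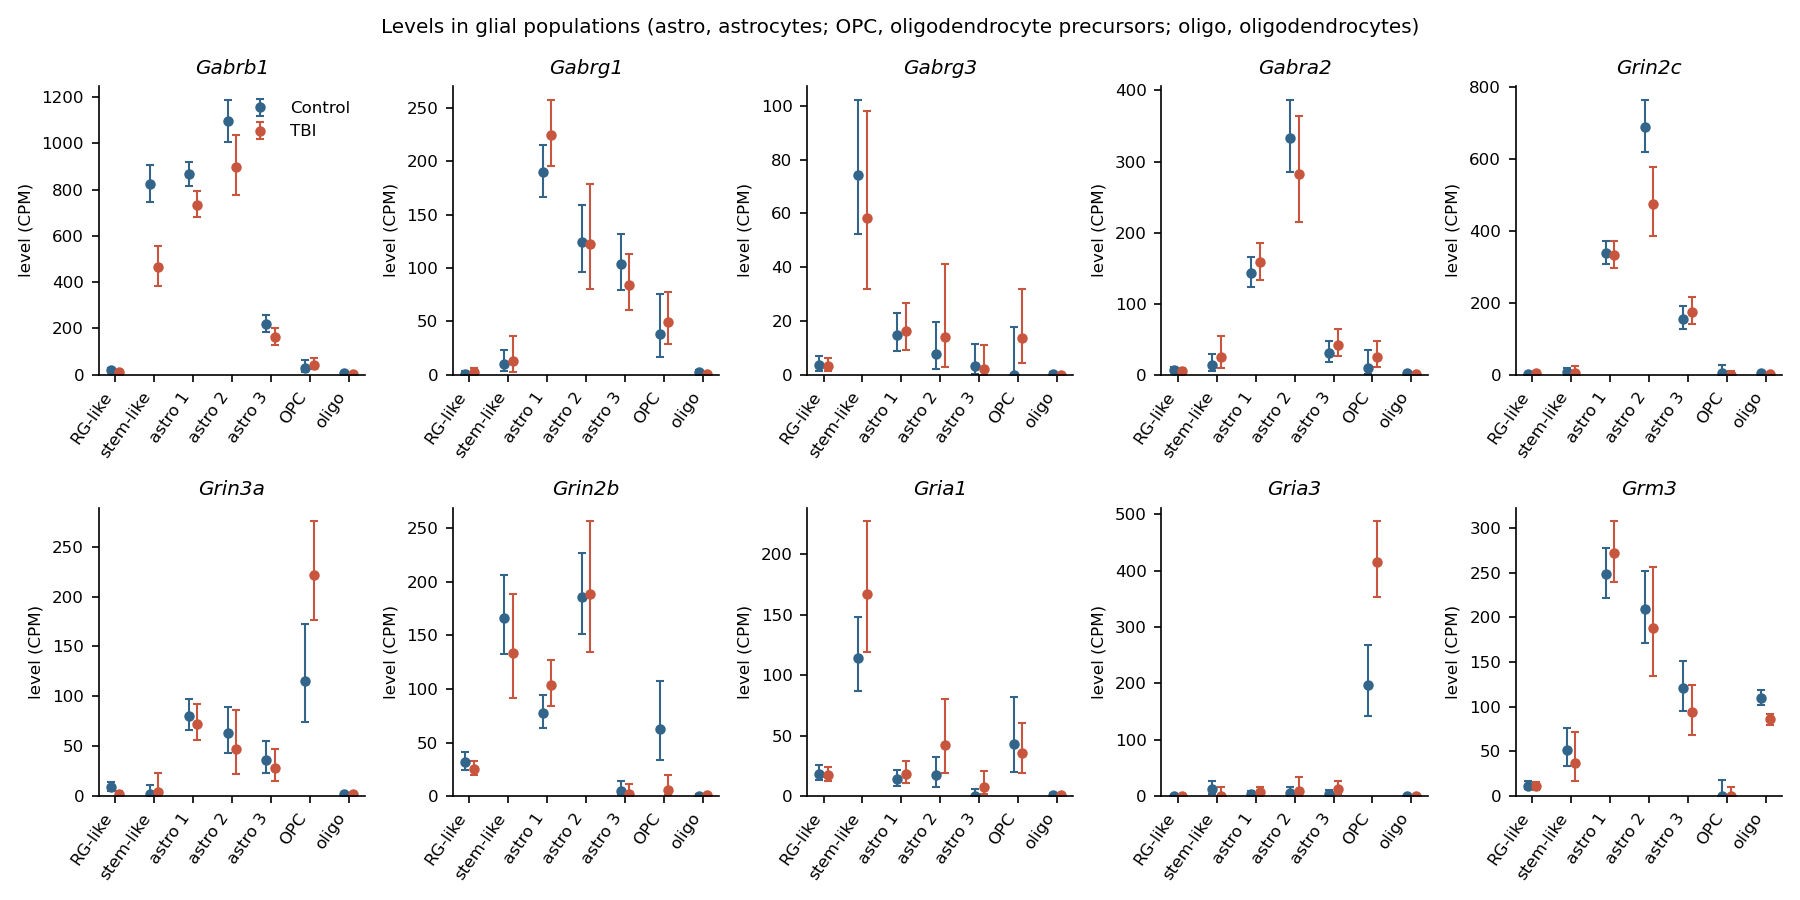
Levels in CPM (vertical axes, each from 0) of 10 genes in RG-like progenitors, stem-like astroglia, astrocytes 1 to 3, oligodendrocyte precursors and oligodendrocytes (horizontal axis), with 95% Poisson intervals; blue points are the Control library and red points the TBI library. Gabrb1 is high in the stem-like astroglia and astrocytes, and Gabrg3 and Gria1 peak in the stem-like astroglia (74.2 and 58.4 CPM, 114 and 167 CPM). Gabrg1, Grin2c and Grm3 are low there and high in astrocytes 1, and Gria3 and Grin3a peak in oligodendrocyte precursors. In Control the Grin3a interval of the precursors (74.1 to 172 CPM) overlaps that of astrocytes 1 (66.0 to 97.7 CPM).

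Oligodendrocyte precursors (27 and 56 cells) had all 4 AMPA receptor genes. Gria2 had 1677 and 1196 CPM there and 50.0 and 34.3 CPM in oligodendrocytes, 33.5-fold (28.6 to 39.4) and 34.9-fold (30 to 40.6) less. Gria3 had 198 and 416 CPM in the precursors and 1 and 3 UMIs in 567 and 1103 oligodendrocytes. Gria4, a subunit of fast AMPA receptors, had 145 and 109 CPM in the precursors and 32.9 and 28.6 CPM in oligodendrocytes. Grin3a, an NMDA receptor subunit that binds glycine, had 116 and 222 CPM against 1.97 and 1.74 CPM, and Grm5, a receptor coupled to calcium release, had 116 and 142 CPM against 0.536 and 1.05 CPM. Grik1 had 24.1 and 24.6 CPM in the precursors, from 5 and 9 UMIs, and Grik3 28.9 and 27.4 CPM, from 6 and 10 UMIs. Both reached 20 CPM in no other named neural population, but their intervals began below 20 CPM in both libraries. Grm3 was the reverse: it had 616 and 740 UMIs in oligodendrocytes, or 110.1 and 86.0 CPM, and 0 UMIs in the precursors, which allows up to 14.5 and 8.21 CPM. Of 10 comparable genes, 5 were higher in the precursors (Gria2, Gria3, Gria4, Grik5 and Grin3a) and 3 were lower (Gabbr1, Grm3 and Slc12a2), where 15.3% of 8845 genes were higher and 7.77% lower. Gria3 and Grin3a entered only through the precursors, and Gabbr1, Grm3 and Slc12a2 only through oligodendrocytes. Each entered through the population in which it was high, so these counts do not describe the whole family. Among partner genes, Cacng4, an AMPA receptor auxiliary subunit, had 178 and 331 CPM in the precursors and 0 and 1 UMIs in oligodendrocytes. The Control precursors held more oligodendrocyte RNA: 7 of 8 oligodendrocyte markers were higher than in TBI, with a sum of 24668 CPM against 5601 CPM. The precursor markers differed as well. Enpp6 (1354 and 408 CPM), Bmp4 (386 and 328 CPM) and Neu4 (463 and 369 CPM) were higher in Control. The others in that list were higher in TBI, among them Pdgfra (675 and 1037 CPM) and Lhfpl3 (578 and 1116 CPM). The part of these differences in the precursors' levels was not tested.

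Reln neurons (28 and 74 cells) had the markers Trp73, Lhx1 and Ndnf, and the vesicular glutamate transporter Slc17a6 at 497 and 561 CPM. The GABA synthesis genes in the marker list were at or near 0: Gad2 had 0 UMIs and Gad1 had 3 and 0 UMIs. In Control, 3 of the 28 cells had fewer than 2 of the 4 markers Reln, Ndnf, Trp73 and Lhx1, and these 3 cells held 35 of the 38 Grin2b UMIs, all 22 Grin2a UMIs and 69 of the 250 Gria2 UMIs. No TBI cell was of this kind. Levels are therefore also given for the other 25 Control cells. Grin2b had 167 CPM in Control and 17.8 CPM in TBI, and 14.3 CPM in Control without the 3 cells. Gria2 had 1099 and 729 CPM, and 861 CPM in Control without them. Gria1, at 339 and 244 CPM (290.3 CPM in Control without the 3 cells), was 2.56-fold and 2.09-fold its level in late neuroblasts 2. Gabbr1, at 237 and 292 CPM, was 1.58-fold (1.14 to 2.15) and 1.96-fold (1.55 to 2.46) higher. Gabra2, Gria2 and Grin2b were lower than in late neuroblasts 2, so that 2 of 12 comparable genes were higher and 3 lower, where 10.3% and 10.2% of 5787 genes were. Gabra2 and Grin2b entered this comparison only through late neuroblasts 2, so these counts do not describe the whole family. Without the 3 cells the Gabbr1 interval in Control (173 to 308 CPM) overlapped that of late neuroblasts 2, and 1 gene was higher. Grin1 (74.7 and 83.8 CPM) and Gria4 (87.9 and 86.3 CPM) did not differ between the libraries beyond their intervals.

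TBI was compared with Control in 87 pairs of a gene and a named neural population, which covered 19 of the 47 genes. The ratio was at least 1.5-fold in 7 of them (8.05%), 4 higher and 3 lower in TBI, and the median log2 ratio was 0.01, with a range from -0.83 to 1.07. These counts depended on the UMI limit: from 50 UMIs in place of 100, 8 pairs were lower, and from 200 UMIs 0 of 53 pairs were higher. Shares of all genes were computed at the limit of 100 UMIs only, so the counts at the other limits have none beside them. The share of all genes past that fold was 2.23% in RG-like progenitors, 2.33% in intermediate neuroblasts, 4.78% in Reln neurons, 12.3% in stem-like astroglia and 28.5% in oligodendrocyte precursors, the 5 populations that held the 7 pairs. In cycling progenitors, early neuroblasts, late neuroblasts 1 and 2, all astrocytes and oligodendrocytes, no pair was past 1.5-fold, where 3.77%, 2.48%, 2.54%, 2.86%, 2.62%, 6.30%, 4.68% and 1.80% of all genes were, in that order. A fold in these data is a difference between 2 libraries, and whether it came from the injury, the pooled animals or the preparation cannot be told apart.

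In RG-like progenitors, Gabra4 had 44 UMIs in Control and 103 in TBI, or 21.4 CPM (15.6 to 28.7) and 41.4 CPM (33.8 to 50.2). The TBI level was 1.93-fold the Control level, a log2 ratio of 0.95 (0.43 to 1.49), where 1.39% of all genes there were at least 1.5-fold higher. The other 4 comparable genes in these cells lay between -0.32 and 0.08, and the median over the 5 was -0.22, against 0.015 over all 6825 genes tested there. In cycling progenitors Gabra4 had 29.7 and 25.8 CPM, whose intervals overlapped. The 10 astrocyte markers summed to 2255 CPM in Control and 2139 CPM in TBI RG-like progenitors, with 9 of 10 higher in Control and none at 0. Among the markers of the RG-like progenitors themselves, Hes5 had 578 and 309 CPM and Vim 430 and 504 CPM. The part of these markers in the Gabra4 level was not tested.

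In intermediate neuroblasts, 1 of the 10 comparable genes was at least 1.5-fold higher in TBI, where 0.949% of all genes were. The median log2 ratio over the 10 was 0.16, against 0.005 over all genes. The 8 late neuroblast markers summed to 7406 and 7198 CPM in these cells, 5 of them higher in Control. Sox11 and Dcx, which are among them, are intermediate neuroblast markers too. The part of these markers in the receptor levels was not tested.

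In stem-like astroglia, Gabrb1 and Gria2 were lower in TBI. Gabrb1 had 824 CPM (746 to 908) in Control and 463 CPM (381 to 558) in TBI, 1.78-fold less. With the limit of 10% on mitochondrial UMIs its log2 ratio was -0.52 instead of -0.83, under the 1.5-fold mark. Gria2 had 1454 CPM (1350.0 to 1564) and 909.6 CPM (793 to 1039), 1.60-fold less, where 5.44% of all genes were at least 1.5-fold lower. Gabbr1 (217 and 271 CPM) and Grin2b (166 and 134 CPM) were the other comparable genes and their intervals overlapped. In the same cells, 9 of 10 astrocyte markers were lower in TBI, with sums of 20454 and 16677 CPM, and 6 of 10 RG-like markers were higher, with sums of 2152 and 2674 CPM. Vim had 485 and 722 CPM and Hopx 1570.3 and 1168 CPM. The part of these markers in the receptor levels was not tested.

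In oligodendrocyte precursors, Gria3 had 198 CPM (142 to 268) in Control and 416 CPM (352 to 488) in TBI, and Grin3a 116 CPM (74.1 to 172) and 222 CPM (176 to 275), 2.11-fold and 1.92-fold more, where 17.6% of all genes were at least 1.5-fold higher. Among the cells with a Pdgfra UMI (13 and 35 cells), chosen after the difference in oligodendrocyte RNA was seen, Gria3 had 394 and 532 CPM, a log2 ratio of 0.43 (-0.14 to 1.05), and Grin3a 296 and 278 CPM, a log2 ratio of -0.091 (-0.79 to 0.66). The intervals of both ratios then included 0. Gria2 had 2217 and 1365 CPM in these cells, a log2 ratio of -0.70 (-0.97 to -0.42), past 1.5-fold, where the whole cluster had -0.49. In these cells the myelin gene Mbp had 61.6 and 59.2 CPM, against 4496 and 837 CPM in the whole cluster. Gria2 was 1.51-fold lower in TBI than in Control Reln neurons, at 729 against 1099 CPM, where 2.18% of all genes were at least 1.5-fold lower. Without the 3 Control cells named above the log2 ratio was -0.24 (-0.51 to 0.03) instead of -0.59 (-0.84 to -0.34). Markers of immature granule neurons in the Reln cells summed to 730 CPM in Control and 223 CPM in TBI, with 1 and 5 of the 10 at 0.

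**Figure D5:**
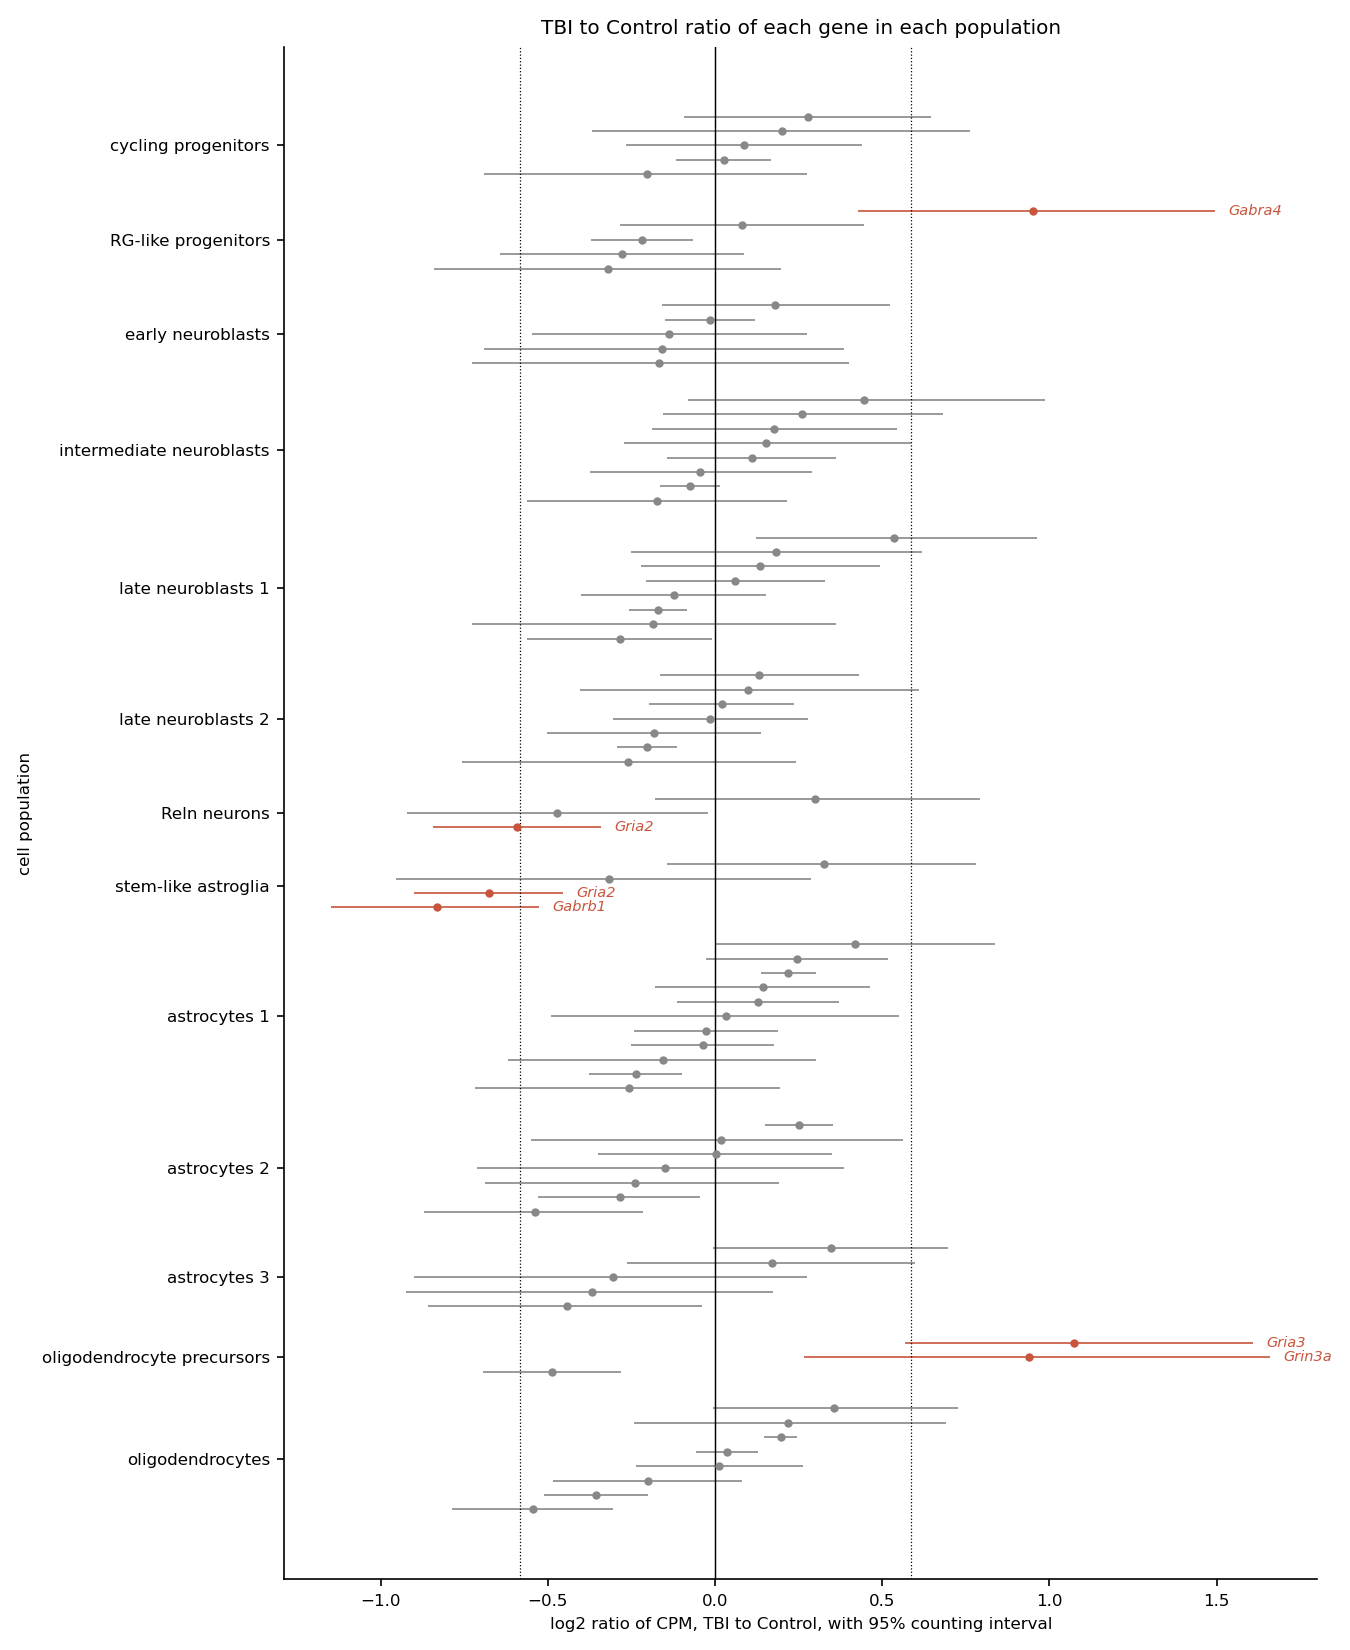
Log2 ratio of TBI to Control CPM (horizontal axis) for 79 of the 87 pairs of a gene and a neural population (rows, grouped by population), with 95% counting intervals; dotted lines mark 1.5-fold. Red points are 6 pairs past 1.5-fold, from Gabrb1 in stem-like astroglia (-0.83) to Gria3 in oligodendrocyte precursors (1.07), and the other pairs are grey.

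Of the partner genes, few were past 1.5-fold in a neural population. Cnih3 in intermediate neuroblasts, Dlg4 in cycling progenitors and Cacng4 in oligodendrocyte precursors were higher in TBI, and Shank1 in late neuroblasts 2 and Dlg4 in astrocytes 2 were lower. In late neuroblasts 2, Shank1 had 85.4 and 55.1 CPM. Outside the neural populations, Slc12a2 had 22 and 43.6 CPM in endothelial cells and 340.3 and 583 CPM in mural cells, 1.98-fold and 1.71-fold more in TBI, where 2.47% and 11.6% of all genes were past 1.5-fold in either direction and 1.52% and 6.75% were higher. Gabbr1 in mural cells, at 46.7 and 70.2 CPM, was past that fold too, with a log2 ratio of 0.59 (0.14 to 1.05). The mural cells differed in their own markers as well: Acta2, of smooth muscle, had 6860 and 1809 CPM and Vtn, of pericytes, 10578 and 15329 CPM, and 1 of the mural clusters held 31 Control and 214 TBI cells. The 6 endothelial markers in them summed to 171 and 234 CPM. The mural cell markers in the endothelial cells were higher in TBI in 8 of 8 cases, with sums of 546 and 904 CPM. The part of these markers in the levels was not tested.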

How the data were processed

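Single-cell RNA sequencing was done on GFP+ cells sorted from the ipsilateral dentate gyrus, with a live and dead cell gate, using 10x Genomics 3′ v3 chemistry. The authors aligned the reads to GRCm38 (mm10) with Cell Ranger 3.0.2 and deposited, for each library, UMI counts of 31053 genes in called cells (3086 and 5081 barcodes). The count tables were tied to their conditions by the authors' cell lists: 356 of 356 listed Sham barcodes and 320 of 320 listed TBI barcodes were found in 1 table each and 0 in the other.

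From these counts, cells with under 200 genes, or with UMIs over 3 median absolute deviations from the median on the log scale in their library, were left out of all steps, which kept 3048 and 5033 cells. Doublets were called (1.31% and 2.19% of cells) and left in, but clusters with 50% or more of them had no name and entered no population: 1 of 15 cells (100% doublets) and 1 of 19 cells (94.7%). The libraries were integrated by canonical correlation analysis and cells were clustered in Seurat 5.3.0 (R 4.3.3) on 2000 variable genes, without the 47 genes and Malat1, with 20 dimensions at resolution 3, and the cells of the neuronal and astroglial clusters again with 16 dimensions at resolution 0.8. Clusters were named from marker lists, with at least 3 detected markers. The authors' own clusters were made in another version and were not used. UMIs were summed per population and library with Python 3.11.15 (NumPy 2.4.6, SciPy 1.17.1), with exact Poisson intervals for levels, exact conditional binomial intervals for ratios and Clopper-Pearson intervals for shares, all at 95% and for counting error only. PCR duplicates were already removed through UMIs. No p-values were computed, since each condition was 1 library.

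The text names a gene between populations where its level was higher or lower in both libraries with intervals apart, and between conditions where the ratio was at least 1.5-fold with an interval that excluded 1, from 100 UMIs or more, with a minimum of 10 per library between conditions. A count of 0 was taken to allow up to 3 counts. The rule for the genes used symbols only, but these families, the lists and the limits were chosen with earlier results of these data known. Alternatives were other filters on cells, another scaling, other UMI limits, other thinning depths and other clusterings or memberships. The calculations were checked on simulated data. The values of some of the genes are not reported here.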

Additional observations from a re-analysis of the deposited data

Results flagged for a closer look

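Cells outside the neural populations, which are outside the main comparisons, held several of these genes with intervals that began at 20 CPM or more in both libraries. Slc12a2 had 340.3 and 583 CPM in mural cells and 111 and 114 CPM in microglia (Control first, TBI second). Gabbr1 had 42.5 and 45.4 CPM in endothelial cells and 46.7 and 70.2 CPM in mural cells. Mural cells also held the metabotropic receptor genes Grm3, at 73.8 and 98.6 CPM, and Grm7, at 59.0 and 64 CPM. Endothelial cells held 2.20 and 4.84 CPM of Grm3, and 0 and 5 UMIs of Grm7.

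Gria2 differed between TBI and Control in opposite directions in different populations, each with a counting interval of the ratio that excluded 0. The log2 ratio was 0.22 in astrocytes 1 and 0.25 in astrocytes 2. It was -0.22 in RG-like progenitors, -0.17 in late neuroblasts 1, -0.20 in late neuroblasts 2, -0.59 in Reln neurons, -0.68 in stem-like astroglia, -0.49 in oligodendrocyte precursors and -0.55 in oligodendrocytes. Without the 3 Control cells that lacked the markers, the value in Reln neurons was -0.24 (-0.51 to 0.03), whose interval included 0. The oligodendrocyte levels were low, at 50.0 and 34.3 CPM, where endothelial cells, not known for Gria2, had 24.9 and 33.5 CPM. Their intervals overlapped in TBI (30.5 to 38.4 and 26.4 to 41.9 CPM) and were apart in Control (44.4 to 56.3 and 17.3 to 34.8 CPM). The Malat1 share was 14.1% and 15.6% in astrocytes 1 and 19.7% and 21.1% in astrocytes 2. It was 1.82% and 1.74% in RG-like progenitors, 4.44% and 4.34% in late neuroblasts 1 and 5.35% and 4.72% in late neuroblasts 2. Reln neurons had 7.09% and 8.11%, and stem-like astroglia 10.1% and 8.44%. Oligodendrocyte precursors had 6.96% and 5.60%, and oligodendrocytes 7.22% and 7.16%. The part of nuclear RNA in these ratios was not tested. All cells of a condition came from 1 library, and the difference between these populations was not tested.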

How the results depend on the processing

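With 1 library per condition no setting gave a test, and the depth of the smaller populations limits what could be compared. No paired analysis was possible because each library pools its animals and cells carry no animal number. Among the recomputed values of the main comparisons, 135 stayed within the counting interval of the value reported, or within 1.5 times a count, and 18 did not. Some alternatives changed a single population, and the 135 include comparisons without that population, which could not move. The tally is therefore no measure of stability. With a limit of 10% on mitochondrial UMIs in place of the filter on UMIs, 0 genes were higher in stem-like astroglia than in astrocytes 1 (1 in the report), the log2 ratio of TBI to Control for Gabrb1 in stem-like astroglia was -0.52 instead of -0.83, which ended that 1.5-fold call, and late neuroblasts 3 were not found. Scaling without mitochondrial, ribosomal and hemoglobin genes left 1 gene higher in Reln neurons than in late neuroblasts 2, instead of 2. A limit of 50 UMIs gave 8 pairs lower in TBI instead of 3, and a limit of 200 UMIs left 53 of the 87 pairs and 0 higher in TBI instead of 4. Shares of all genes were not computed at these limits. Among alternatives added after seeing the data, Reln neurons with at least 2 of 4 markers gave 1 gene higher than in late neuroblasts 2 and a Gria2 log2 ratio of -0.24. Oligodendrocyte precursors with a Pdgfra UMI left 2 pairs higher in TBI, both in other populations. Gria3 (log2 ratio 0.43) and Grin3a (-0.091, the 1 value that reversed) were no longer among them, and Gria2 (-0.70) was past 1.5-fold. Shares of cells with a UMI follow the depth, and the set of cells changes too, since cells below the thinning depth are left out. Thinned to 1000 UMIs, 25.5% of TBI stem-like astroglia held Gabrb1, 18.1% of Control and 19.2% of TBI astrocytes 1 held Gabrg1, and 23.6% of Control and 23.1% of TBI late neuroblasts 2 held Grin2b. Without thinning the shares were 88.0% and 71.2%, 56.5% and 55.6%, and 80.3% and 78.2%. Over all settings the log2 ratio of Gabra4 in RG-like progenitors lay between 0.84 and 0.97 and that of Gria2 in stem-like astroglia between -0.76 and -0.64. The causes of these differences were not tested.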
